A study of Mus musculus with 14 samples.

Results

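The 9 genes of the oligodendrocyte lineage described here, Olig1, Olig2, Pdgfra, Cspg4, Nkx2-2, Gpr17, Myrf, Mbp and Cnp, were measured in 14 mouse RNA libraries. They were chosen by name as known lineage genes, and all 9 were found among the 35449 genes of the data. The libraries came from primary lines started from E13.5 embryos, untreated, each an independent line by the series' design text. Neurospheres, which grow from neural stem and precursor cells, were made from the heads, and mouse embryonic fibroblasts (MEFs) from the bodies without internal organs. There were 3 wild-type (WT) and 5 knockout (KO) lines of MEFs, and 3 lines of each genotype for neurospheres. The labels give the genotype only as WT or KO, the series title names the gene as H3f3a, 1 of the genes for histone H3.3, and its allele as knockout-first, and strain and sex are not stated. Each group is a mixed primary culture measured in bulk, so fewer cells of a type and less RNA per cell cannot be told apart.

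Oligodendrocytes, the myelin-forming cells of the central nervous system, arise from precursors in the embryonic neural tube and brain. The basic helix-loop-helix factors OLIG1 and OLIG2 mark progenitors that can give rise to motor neurons, interneurons or oligodendrocyte precursors, and OLIG2 is also found in other cycling neural progenitors. Precursors are known for PDGFRA, the receptor for platelet-derived growth factor A, and for the surface proteoglycan NG2, encoded by Cspg4. NKX2-2, the receptor GPR17 and the factor MYRF act as precursors commit and mature, and MBP and CNP are proteins of the myelinating cell. Several of these genes are used outside the lineage too: Pdgfra in fibroblasts and other mesenchyme, and Cspg4 in pericytes.

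Values are counts scaled to library size, as CPM, on a common scale for all libraries, with the SD over lines. Libraries held 1669406 (KO neurospheres 2) to 3296178 (WT MEFs 3) counts in genes, and 3 counts, the most that a reading of 0 allows, correspond to 0.91 to 1.8 CPM in a single library. H3f3a stood at 845 to 1420 CPM in WT MEFs and 7.27 to 18.8 in KO MEFs, and at 1964 to 2409 in WT neurospheres and 26.2 to 70.7 in KO neurospheres, so the genotype labels held in every library. WT MEFs 2 and KO MEFs 3 stood apart: a chi-square per gene over counts was 27.2 to 40.6 for replicate pairs with either of them, and 4.29 to 12.1 for the other MEF pairs. Results in MEFs are therefore given with and without these 2 lines where they moved. The cell type labels held for the marker lists. All 7 fibroblast markers were lower in neurospheres (Col1a1 at 5750 ± 733 CPM in WT MEFs and 3.34 ± 5.38 in WT neurospheres). All 5 neural stem markers that could be tested were higher (Sox2 at 17.6 ± 26.0 and 958 ± 253 CPM). The Sox2 mean of WT MEFs rested mostly on WT MEFs 2, at 47.6 CPM against 2.77 and 2.43 in the other WT MEF lines.

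By the annotation (GENCODE M21, mouse build GRCm38) Olig2 (ENSMUSG00000039830.9) is at chr16:91225457-91228677 and Olig1 (ENSMUSG00000046160.6) at chr16:91269772-91271933, both on the plus strand and 41.1 kb apart. Pdgfra (ENSMUSG00000029231.15) is at chr5:75152292-75198215 (plus), Cspg4 (ENSMUSG00000032911.6) at chr9:56865033-56899870 (plus), and Cnp (ENSMUSG00000006782.16) at chr11:100574904-100591729 (plus). Nkx2-2 (ENSMUSG00000027434.11) is at chr2:147177546-147194243 and Myrf (ENSMUSG00000036098.15) at chr19:10208272-10240748, both on the minus strand. The positions of Gpr17 and Mbp are given with their values. The libraries tag the 3′ end of polyadenylated transcripts, so the counts mostly come from the last exon.

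Upstream stretches of 3 genes that passed the test between the cell types in both genotypes are shown, Olig2 and Cnp, higher in neurospheres, and Pdgfra, higher in MEFs. Olig1 and Mbp also passed in both, and no upstream stretch was available for them. Each runs from 250 to 101 bases before the RefSeq start (GRCm38.p6), 5′ to 3′ on the gene's strand, with CG dinucleotides in capitals.
Olig2, chr16:91225300-91225449: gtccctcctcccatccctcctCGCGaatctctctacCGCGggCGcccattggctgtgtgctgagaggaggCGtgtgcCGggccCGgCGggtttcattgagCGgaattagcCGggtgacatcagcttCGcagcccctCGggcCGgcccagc
Cnp, chr11:100574689-100574838: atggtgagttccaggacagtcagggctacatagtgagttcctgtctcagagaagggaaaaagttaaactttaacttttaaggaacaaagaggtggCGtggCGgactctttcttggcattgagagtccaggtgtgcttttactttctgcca
Pdgfra, chr5:75152001-75152150: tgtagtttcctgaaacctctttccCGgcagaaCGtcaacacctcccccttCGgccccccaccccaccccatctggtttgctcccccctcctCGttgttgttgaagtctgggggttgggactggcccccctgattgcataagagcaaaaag
The Olig2 stretch held 14 CG dinucleotides, and 10.5% of 32851 promoters of the same table held as many or more in a stretch of the same length. Cnp held 2 and Pdgfra 4, against a median of 3. The E-box CANNTG, the motif class bound by basic helix-loop-helix factors, reads the same on both strands: it occurred 0 times in the Olig2 stretch and 1 time each in those of Cnp and Pdgfra, and 49.3% of all promoters held it. Of the 9 genes, 5 matched the table. Cspg4 held 5 CG dinucleotides and no E-box, and Nkx2-2 held 6 and 3.

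The comparison of the cell types showed a split among the 9 genes. Olig1, Olig2 and Cnp were higher in neurospheres, Pdgfra and Mbp were lower there, and Cspg4 was present in both. Between WT lines 6 of the 9 passed the low-count filter and 5 passed the test, against 41.6% of the 11080 genes tested. Of these 3 were higher and 2 lower in neurospheres, where 20.8% of all genes were higher and 20.8% lower. Between KO lines, which share no library with the WT comparison, 7 passed the filter and 6 passed the test, against 51.6% of 11413 genes, with 3 higher and 3 lower against 25.4% and 26.2%. Several of these genes, such as Olig1 and Olig2, passed the filter only through the cell type in which they are read, so the counts are a description.

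**Figure D1:**
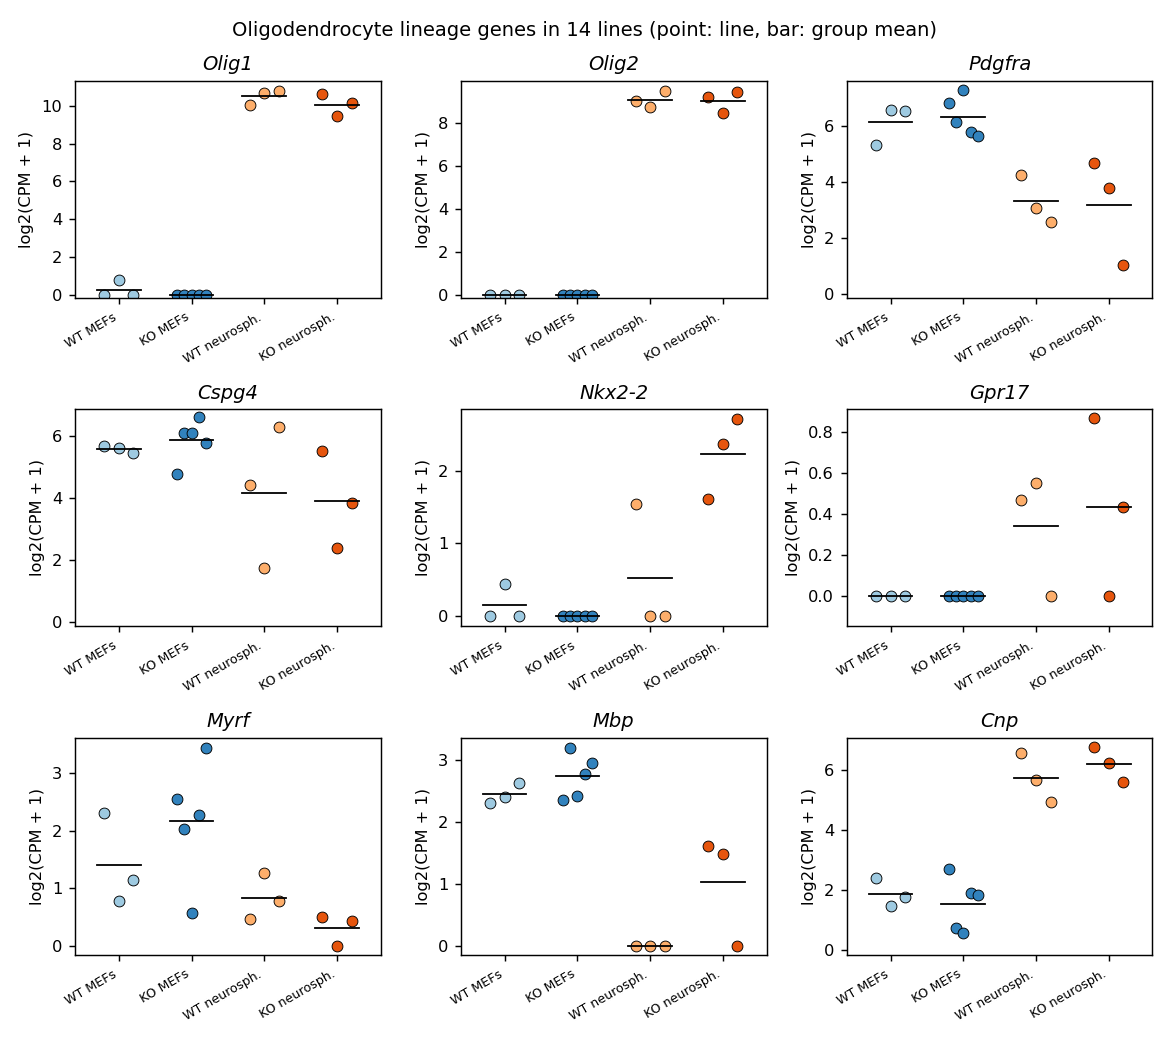
Level of each gene as log2(CPM + 1) (vertical axis, own range per panel) in the 4 groups (horizontal axis); each point is a line and each bar a group mean. Olig1, Olig2 and Cnp separate neurospheres from MEFs upward and Pdgfra downward, and WT and KO points overlap for all of these genes within a cell type.

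Olig2, the factor needed for the lineage to form, was read at 525, 432 and 715 CPM in WT neurospheres and at 601, 355 and 694 CPM in KO neurospheres. It had 0 counts in all 8 MEF lines. All 6 neurosphere lines were thus within a 2.01-fold range, and the genotypes overlapped. Set against 3 counts over the MEF libraries of a genotype, Olig2 was at least 1633-fold higher in WT neurospheres (edgeR adjusted p = 8.71e-05) and at least 2600-fold higher in KO neurospheres (adjusted p = 1.30e-05).

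Olig1, its neighbour on the chromosome and a factor of maturing oligodendrocytes, followed the same split. It was read at 1052, 1648 and 1743 CPM in WT neurospheres and at 1553, 693 and 1134 CPM in KO neurospheres. In MEFs it had 2 counts in WT MEFs 2 (0.716 CPM), a line that stood apart, and 0 in the other 7 lines. The WT ratio, from these 2 counts, was 6356 (95% counting interval 1759 to 52492, edgeR adjusted p = 6.97e-05), and KO neurospheres were at least 5261-fold above KO MEFs (adjusted p = 1.77e-05).

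Cnp, which encodes a phosphodiesterase of myelin and is already made by precursors, was read at 93.5, 50.3 and 30.1 CPM in WT neurospheres and at 108, 74.3 and 47.5 CPM in KO neurospheres. MEF lines held 4.36, 1.79 and 2.43 CPM (WT) and 5.51, 0.684, 0.484, 2.77 and 2.63 CPM (KO). No MEF line reached the lowest neurosphere line. Cnp was 20.5-fold higher in WT neurospheres (log2 4.36, SE 0.55, 95% interval 3.08 to 5.64, edgeR adjusted p = 0.000917) and 30.7-fold higher in KO neurospheres (log2 4.94, SE 0.54, interval 3.73 to 6.16, adjusted p = 7.97e-05). Transcript Cnp-201, of 4 exons, took 96.6% to 100% of the Cnp reads in each group.

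Pdgfra went the other way. MEF lines held 38.4, 94.5 and 92.2 CPM (WT) and 111, 69.0, 155, 53.3 and 48.9 CPM (KO). Neurosphere lines held 17.9, 7.45 and 4.96 CPM (WT) and 24.3, 12.6 and 1.05 CPM (KO), all below the lowest MEF line. The gene was 7.28-fold lower in WT neurospheres (log2 -2.86, SE 0.56, interval -4.17 to -1.55, edgeR adjusted p = 0.00596) and 6.86-fold lower in KO neurospheres (log2 -2.78, SE 0.76, interval -4.49 to -1.07, adjusted p = 0.0129). Without the MEF lines that stand apart the log2 values were -2.69 and -2.47. The size rested in part on single neurosphere lines: it was -3.59 (adjusted p = 0.00542) without WT neurospheres 1, -3.79 (adjusted p = 0.0108) without KO neurospheres 1 and -2.19 (adjusted p = 0.00935) without KO neurospheres 3. The precursor receptor was thus at its lower level in the cultures in which Olig1 and Olig2 were read.

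Cspg4 did not separate the cell types by the main test. It was read at 49.5, 48.3 and 42.3 CPM in WT MEFs and at 26.2, 67.0, 67.8, 96.6 and 53.8 CPM in KO MEFs. Neurospheres held 20.2, 2.33 and 77.6 CPM (WT) and 44.9, 4.19 and 13.3 CPM (KO), a 33.3-fold range over 6 lines that spanned most of the MEF values. The log2 difference was -0.45 in WT lines (SE 0.89, interval -2.54 to 1.64, did not pass the edgeR test) and -1.54 in KO lines (SE 0.65, interval -2.99 to -0.09, adjusted p = 0.0722). Single lines decided these values: without WT neurospheres 3 the WT value was -1.99 (adjusted p = 0.0856), without WT neurospheres 2 it was 0.08, and without KO neurospheres 1 the KO value was -2.75 (adjusted p = 0.00763) and passed the test. It also passed without KO MEFs 1 (-1.75, adjusted p = 0.0470) and by DESeq2 (-1.57, adjusted p = 0.0240). Salmon placed 88.3% to 94.5% of Cspg4 reads on Cspg4-204, a short transcript annotated as a retained intron, whose last exon ends with that of the coding transcript Cspg4-201, so 3′ tags hardly separate the pair. The 6 pericyte and smooth muscle markers, mostly Acta2, summed to 1315 to 4375 CPM in MEFs and 3.49 to 14.4 in neurospheres, with Acta2 and Des at 0 in all neurosphere lines, and their part in the Cspg4 levels was not tested.

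**Figure D2:**
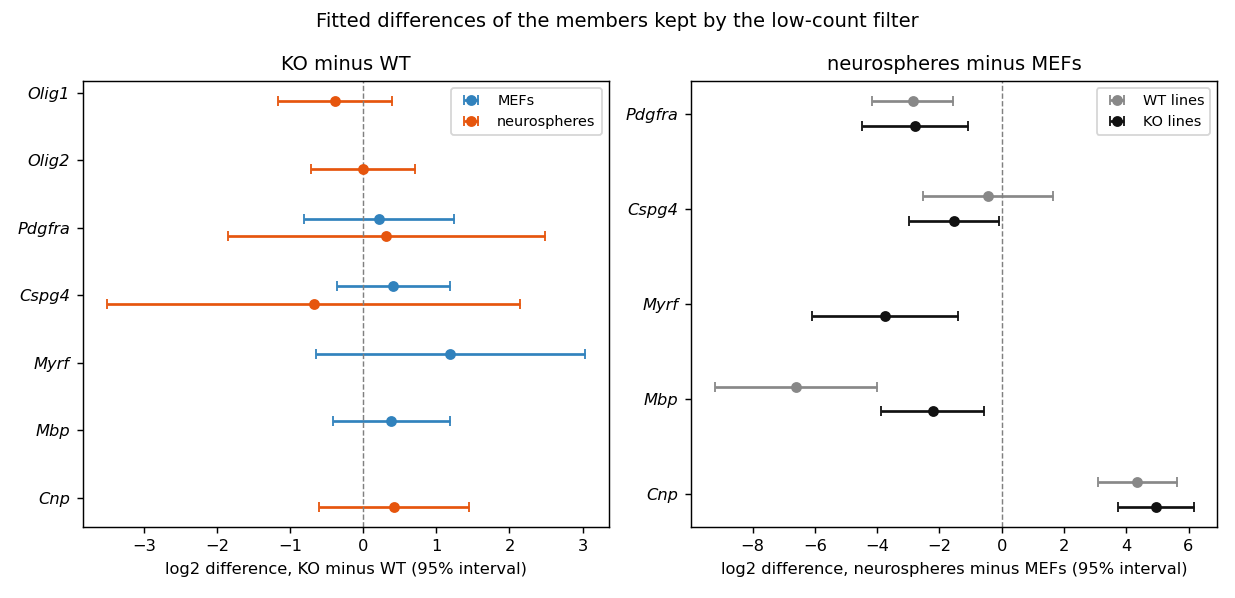
Fitted log2 differences (points) with 95% intervals (bars) for the genes that passed the low-count filter. KO minus WT is on the left and neurospheres minus MEFs on the right, where Olig1 and Olig2 are left out. The right panel includes Mbp in WT lines, with 0 counts in neurospheres, and Myrf in KO lines, with 2. The size of these points is uncertain, as it rests on 3 counts or fewer in neurospheres. All KO minus WT intervals cross 0, while between cell types only that of Cspg4 in WT lines does. The intervals are not adjusted for the number of genes, and Cspg4 in KO lines did not pass the adjusted test.

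The genes of commitment and maturation were near the limit of detection. Nkx2-2 had 1 count over the 3 WT MEF lines and 0 over the 5 KO MEF lines. In neurospheres it had 5, 0 and 0 counts in WT lines (1.91, 0 and 0 CPM) and 5, 7 and 16 counts in KO lines (2.06, 4.19 and 5.59 CPM). It did not pass the filter in these comparisons. KO neurospheres were at least 18.0-fold above KO MEFs (adjusted p = 0.00298 in the edgeR fit without a filter), and the WT ratio, 5.67, had a counting interval of 0.634 to 268.

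Gpr17 (ENSMUSG00000052229.5, chr18:31942997-31949636, minus strand), a receptor of cells that leave the precursor state, had 0 counts in all MEF lines, 1, 1 and 0 counts in WT neurospheres and 2, 0 and 1 counts in KO neurospheres. These are at or under 3 counts per group, so no fold is given.

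Myrf, which drives myelin genes in maturing oligodendrocytes and is also used in other tissues, was higher in KO MEFs than in KO neurospheres. It was read at 3.96, 0.716 and 1.22 CPM in WT MEFs and at 4.82, 3.08, 0.484, 3.81 and 9.79 CPM in KO MEFs. Neurospheres held 0.382, 1.40 and 0.709 CPM (WT) and 0.412, 0 and 0.349 CPM (KO). In KO lines the gene passed the test with a ratio of 15.8 (counting interval 4.19 to 133, from 61 and 2 counts, edgeR adjusted p = 0.0137). In WT lines it did not pass the filter, and without a filter the log2 value was -1.21 (adjusted p = 0.454). The KO call was lost with replicate number as a block (adjusted p = 0.106), and Myrf did not pass the filter in fits without KO MEFs 1, 4 or 5.

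Mbp (ENSMUSG00000041607.17, chr18:82475146-82585637, plus strand), which encodes myelin basic protein, was read in every MEF line and in 2 neurosphere lines. MEF lines held 3.96, 4.30 and 5.17 CPM (WT) and 4.13, 8.20, 4.36, 5.89 and 6.78 CPM (KO). Neurospheres held 0 CPM in the 3 WT lines and 2.06, 1.80 and 0 CPM in the KO lines, from 8 counts in all. Mbp was at least 11.5-fold lower in WT neurospheres than in WT MEFs (edgeR adjusted p = 0.00491) and 4.67-fold lower in KO neurospheres than in KO MEFs (log2 -2.22, SE 0.74, interval -3.87 to -0.58, adjusted p = 0.0289). The WT difference could not be tested without WT MEFs 2 or WT MEFs 3, since Mbp then missed the filter. The KO call was lost without KO MEFs 2 (adjusted p = 0.0551), KO MEFs 5 (0.0512) or KO neurospheres 2 (0.0502), and with the deposited TPM in limma (log2 -0.44, adjusted p = 0.271). Its size was -2.90 without KO neurospheres 1 and -1.56 without KO neurospheres 3.

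The Mbp reads of the 2 cell types were placed on different transcripts. The locus is known for an upstream start whose products, the golli proteins, occur outside myelin, and a downstream start that gives the classic myelin protein. In MEFs 38.9 of 38.9 estimated reads (WT) and 77.9 of 79.9 (KO) were placed on Mbp-205, which runs from chr18:82475146 to 82558703 in 4 exons and begins at the upstream end of the locus. In KO neurospheres all 8.0 reads were placed on Mbp-216, from chr18:82554546 to 82585637, which begins inside the last exon of Mbp-205 (82554320 to 82558703) and ends at the downstream end of the locus. The 2 transcripts have different last exons. Mbp-201, with no reads placed on it, also ends at 82585637 but begins upstream, at 82475162. Reads that tag the 3′ end therefore do not show which start was used in KO neurospheres. The other reads in KO MEFs, 2.0 in all, were on Mbp-216, 1 in each of 2 lines. The gene total therefore compares different 3′ ends, and the difference in transcript use was not tested.

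**Figure D3:**
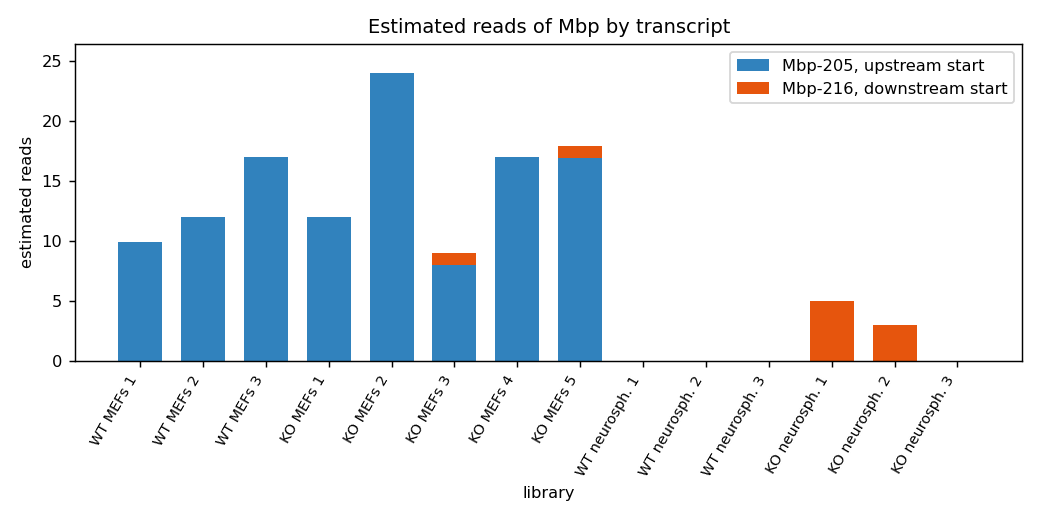
Estimated Mbp reads (vertical axis) in each of the 14 libraries (horizontal axis), split by transcript. Mbp-205 makes up nearly all reads in the 8 MEF lines, and Mbp-216 makes up the 8.0 reads of KO neurospheres 1 and KO neurospheres 2. The starts named are those of the annotated transcripts and were not read from the 3′ tags.

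No member passed the test between KO and WT lines in either cell type. In MEFs 4 of the 9 genes could be tested and 0 passed, against 0.00927% of 10785 genes, which is H3f3a alone. At an unadjusted p under 0.05 there were also 0 members, against 1.62% of the genes (175). All 4 fitted values were above 0, with a median of 0.40 against 0.00 over all genes. Pdgfra averaged 75.0 ± 31.7 CPM in the WT group against 87.5 ± 45.0 CPM in the KO group (log2 0.21, interval -0.81 to 1.24), and Cspg4 at 46.7 ± 3.86 and 62.3 ± 25.5 CPM (0.41, interval -0.36 to 1.18). Mbp was at 4.48 ± 0.627 and 5.87 ± 1.70 CPM (0.38, interval -0.42 to 1.19), and Myrf at 1.96 ± 1.75 and 4.40 ± 3.41 CPM (1.19, interval -0.65 to 3.03). For each of these genes the groups overlapped, where 1.85% of all genes did not overlap. The edgeR adjusted p was 1.00, and the exact two-sided permutation p ran from 0.232 (Mbp) to 0.750 (Pdgfra), where 0.0179 is the smallest that 3 against 5 lines allow. Without the MEF lines that stand apart the log2 value of Pdgfra was 0.10, and it was -0.10 without WT MEFs 1. That of Myrf was 2.13 without WT MEFs 1 and 0.69 without KO MEFs 5. Cnp, tested without a filter, had a log2 value of -0.20 (adjusted p = 1.00), and its means were 2.86 ± 1.33 and 2.42 ± 2.03 CPM.

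In neurospheres 5 of the 9 genes could be tested and 0 passed, against 0.00941% of 10624 genes (H3f3a again), and 0 were under an unadjusted p of 0.05, against 2.14% of the genes (227). Olig2 averaged 557 ± 145 CPM in the WT group against 550 ± 175 CPM in the KO group (log2 0.00, SE 0.31, interval -0.72 to 0.71). Olig1 stood at 1481 ± 375 and 1127 ± 430 CPM (-0.39, SE 0.34, interval -1.17 to 0.39), and Cnp at 58.0 ± 32.4 and 76.7 ± 30.5 CPM (0.42, SE 0.44, interval -0.61 to 1.44). The intervals for Pdgfra (0.31, -1.85 to 2.48) and Cspg4 (-0.68, -3.51 to 2.15) were far wider, as their levels differed more between lines. The edgeR adjusted p was 0.999 for all 5 genes. Exact two-sided permutation p values ran from 0.400 (Olig1) to 1.00 (Pdgfra), and 3 against 3 lines cannot go below 0.1. These intervals give the range of differences that the data leave possible for each gene. They are not limits of detection, and larger differences could also miss the adjusted threshold with 3 lines a group. The value of Cspg4 was 0.88 without WT neurospheres 3, and that of Pdgfra -0.61 without KO neurospheres 1.

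The median over these 5 genes was 0.00, against 0.01 over all genes tested. The groups did not overlap for 0 of them, against 7.20% of all genes. Of the members that missed the filter, Nkx2-2 was higher in each KO neurosphere line than in each WT line, although WT neurospheres 1 and KO neurospheres 1 had 5 counts each and differ only by the scaling to library size. Its log2 value in the edgeR fit without a filter was 2.54 (SE 1.16, interval 0.09 to 4.98), with an unadjusted p of 0.0426 and an adjusted p of 0.952. Mbp, with 0 counts in WT and 8 in KO neurospheres, was at least 2.91-fold higher in KO neurospheres as a bound over the groups. KO neurospheres 3 had 0 counts like the WT lines, so the groups overlapped. The edgeR fit without a filter gave Mbp an unadjusted p of 0.0383 and an adjusted p of 0.952. Myrf, with 6 and 2 counts, had a ratio of WT to KO of 2.75 (counting interval 0.492 to 27.9). The difference between the genotype effects of the 2 cell types passed the test for 0 of the 7 members tested and 0 of 12113 genes by edgeR (366 genes, 3.02%, were under an unadjusted p of 0.05 in edgeR, and DESeq2 called 3, none of them a member).

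Several lineage genes differed between the neurosphere lines. Pdgfra and Cnp were highest in WT neurospheres 1 and KO neurospheres 1, at 17.9 and 24.3 CPM and at 93.5 and 108 CPM. Sox10, the factor that follows OLIG2 in the lineage, was read at 7.25 and 9.47 CPM in these 2 lines, with 0 in the other 4 neurosphere lines. Cldn11, a tight junction gene of myelin, was highest in the same 2 lines, at 4.58 and 7.41 CPM against 0.349 to 0.931. Sox10 and Cldn11 were picked out after their values were seen. The same order, with the first line of each genotype highest, was not particular to lineage genes. The neuron markers Dcx (22.1 and 30.5 CPM) and Map2 (1436 and 1457 CPM) had it too. Tubb3, another neuron marker, did not, and was highest in WT neurospheres 3 and KO neurospheres 2 (43.2 and 70.7 CPM). The list of 12 committed and myelin genes that holds Cldn11 did not share this order in WT lines: it summed to 249, 209 and 306 CPM in WT neurospheres and to 385, 221 and 292 CPM in KO neurospheres.

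Olig1 and Cspg4 shared this order only among KO lines, being highest in KO neurospheres 1 (1553 and 44.9 CPM) but in WT neurospheres 3 among WT lines (1743 and 77.6 CPM). Olig2 was highest in the third line of each genotype (715 and 694 CPM), and Nkx2-2 in WT neurospheres 1 and KO neurospheres 3 (1.91 and 5.59 CPM). Bcas1, a gene of newly committed cells, was at 17.9 and 18.2 CPM in WT neurospheres 1 and 2 and at 58.1 to 115 CPM in the other 4 lines. The Schwann cell and neural crest markers Erbb3, Foxd3 and Ngfr were at 0 in both WT neurospheres 1 and KO neurospheres 1. They were at most 0.466 CPM in any neurosphere line, so these zeros do not set the 2 lines apart. Cdh19, of the same list, was at 15.3 and 25.5 CPM in the 2 lines. The list of 7, held up mainly by Gas2l3 and Cdh19, summed to 30.2 and 49.0 CPM there and to 28.9 to 78.0 in the other lines. The source of the Sox10 reads was not tested. Of the 7 fibroblast markers, summed over the list, WT neurospheres 1 held 141 CPM and the other 5 lines 32.9 to 68.8. Col1a2 was at 21.4 CPM in WT neurospheres 1 and at 0 in KO neurospheres 1, while Pdgfra was high in both. The part of fibroblast transcripts in the Pdgfra level of WT neurospheres 1 was not tested.

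**Figure D4:**
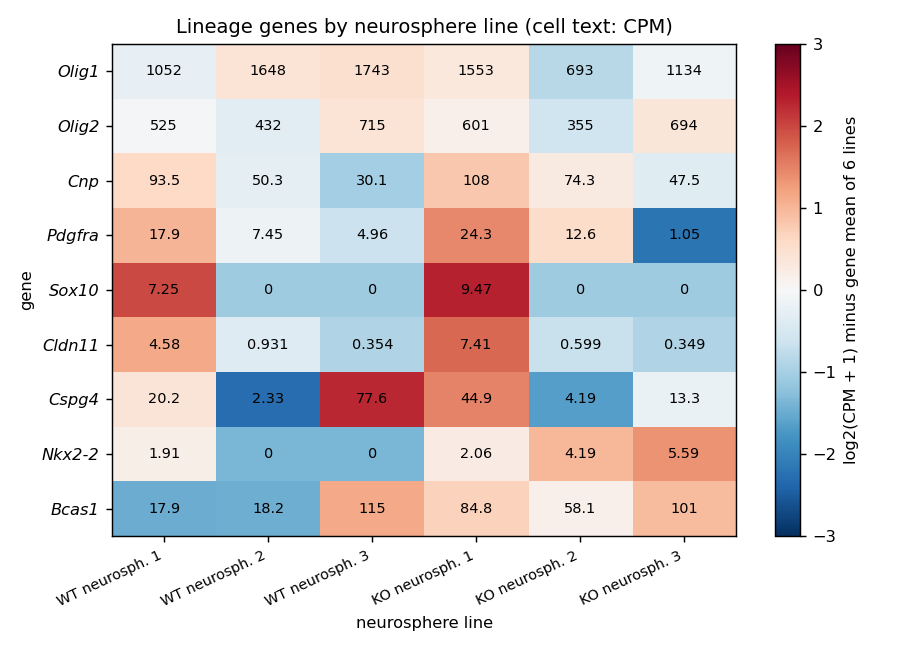
CPM (printed in each cell) of 6 of the lineage genes and of Sox10, Cldn11 and Bcas1 in the 6 neurosphere lines (columns); colour gives log2(CPM + 1) minus the mean of the gene over the 6 lines. Pdgfra, Cnp, Sox10 and Cldn11 are highest in the first line of each genotype, and Cspg4 ranges from 2.33 to 77.6 CPM.

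The genes nearest to Olig2 and to Pdgfra over the 14 libraries were found by the root mean square difference in log2(CPM + 1), each gene centred on its own mean, among 10611 genes of at least 5 CPM. Among the nearest to Olig2 were Grm5 (0.23), a metabotropic glutamate receptor, Bcan (0.30) and Ncan (0.36), matrix proteoglycans of the brain, and Cspg5 (0.46). Bcan, for example, had 0 counts in every MEF line and 471 to 748 CPM in neurospheres. Olig1 was the 11th nearest gene (0.64), and Cnp ranked 285 (2.49). Nearest to Pdgfra were Cercam (0.62), Chchd7 (0.64), Cdo1 (0.65), Amotl2 (0.69) and Capn1 (0.71). Cspg4 ranked only 2818 there (1.57). These distances mostly reflect the split between the cell types and are a description of the 14 libraries.

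Other genes of the lineage were counted from lists, to be read against the shares over all genes tested, 20.8% higher and 20.8% lower in WT neurospheres and 25.4% higher and 26.2% lower in KO neurospheres. Genes with hardly a count in one cell type, such as Bcan, passed the filter only through the other, so these counts too are a description. Of 8 further regulators, 6 could be tested between cell types, and 4 were higher in WT and 5 in KO neurospheres, with none lower. Sox8, a relative of Sox10, was at 0.132 ± 0.229 CPM in WT MEFs and 95.1 ± 40.4 CPM in WT neurospheres. Sox5 and Sox6 were read at 61.2 and 31.5 CPM in WT MEFs 2 and at 103 and 46.5 CPM in KO MEFs 3, and at 0.684 to 13.6 and 1.22 to 5.81 CPM in the other MEF lines. In these 2 lines Olig2 was at 0 as in the rest. Pdgfra was at 155 CPM in KO MEFs 3, against 111 CPM in the next KO line. In WT MEFs 2 it was about level with WT MEFs 3 (94.5 and 92.2 CPM).

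Of 7 further precursor genes, all 7 were tested and 6 were higher in neurospheres of each genotype. Vcan, a matrix proteoglycan made by fibroblasts too, passed as lower in KO neurospheres than in KO MEFs. Of 12 committed and myelin genes, 4 could be tested, and all 4 (among them Bcas1, Itpr2 and Sirt2) were higher in neurospheres of both genotypes. The mature myelin genes Mag, Mog and Mobp were at 0 in all MEFs and all WT neurospheres, and at most 0.599 CPM in any KO neurosphere line. Of the PDGF family, 3 of the 4 genes tested (Pdgfrb, Pdgfc and Pdgfd) were lower in neurospheres. Pdgfc was at 8.71 ± 2.62 CPM in WT neurospheres and 88.6 ± 49.7 CPM in WT MEFs. Pdgfa, which encodes a ligand of PDGFRA, was at 20.4 ± 11.3 and 45.1 ± 24.4 CPM in the same groups and did not pass. Of 10 genes listed as inhibitors of oligodendrocyte differentiation, 9 were tested. In WT and in KO lines alike, 5 were higher in neurospheres (among them Notch1, its target Hes5 and Tcf4) and Bmp4 was lower. Tcf4 encodes an E protein and is not an established inhibitor, so the count does not cover inhibitors alone.

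Between KO and WT lines none of these lists held a gene that passed, in either cell type. In neurospheres 5 of the 7 precursor genes had values below 0 (median -0.47, against 0.01 over all genes), and for Bcan and Vcan every KO line was below every WT line, against 3.86% of all genes. Bcan averaged 744 ± 6.97 CPM in the WT group against 534 ± 104 CPM in the KO group (log2 -0.47, SE 0.22, edgeR adjusted p = 0.999). Vcan was at 245 ± 14.6 and 96.6 ± 48.7 CPM (log2 -1.34, SE 0.33, adjusted p = 0.999) and was named after its values were seen. Olig1 and Olig2 overlapped between the genotypes in the same lines.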

How the data were processed

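Expected counts and TPM per transcript were deposited by the authors, made with Salmon 1.1.0 per the submitters' processing notes, which also name edgeR without a version; its transcript set, genome build and options: not given in the sources used here. QuantSeq 3′ FWD libraries were used, per the labels' protocols. Of 116945 transcript identifiers, 115560 matched GENCODE M21 with their version and 385 by identifier alone, and the 1000 left out held 0.251% to 0.425% of reads. The deposited expected counts were summed per gene (35449) and rounded. Groups follow the labels.

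Each comparison was fitted with edgeR 4.0.16 in R 4.3.3 (TMM, default low-count filter by group, robust quasi-likelihood test, Benjamini-Hochberg adjustment over all genes kept, threshold 0.05), using only the groups compared, or all 14 libraries for the difference of the genotype effects. Printed CPM use TMM factors of all libraries. Single members were also tested by exact permutation of log2(CPM + 1). The tests were checked on simulated counts. Where a group had 0 counts the fold was set against 3 counts over the group; such bounds, and intervals from counts, cover counting error only. The edgeR p-values set the difference between groups against the spread between lines. The permutation p-values compare that difference with those from all reassignments of the group labels.

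The members and lists were chosen with earlier results of these data known. Beside the members and H3f3a, the rule names up to 4 passing genes of each list by smallest p or, where none passes, the 3 with the highest mean, and the 5 genes nearest to Olig2 and to Pdgfra. A few genes that this rule names are not reported here. Other genes were named after their values were seen. Alternatives were DESeq2 1.42.0, its size factors, no filter, a filter at 5 CPM, the deposited TPM as log2(TPM + 1) in limma 3.58.1, all libraries in 1 fit, replicate number as a block, a pseudocount of 0.5, each library left out in turn and, added after seeing the data, fits without WT MEFs 2 and KO MEFs 3. Promoter sequences come from RefSeq (GRCm38.p6).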

Additional observations from a re-analysis of the deposited data

How the results depend on the processing

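No member was called between KO and WT lines, or for the difference of the genotype effects, under any alternative run. Between cell types 4 to 5 members were called in WT lines (5 as reported) and 4 to 8 in KO lines (6 as reported). Olig1, Olig2, Pdgfra and Cnp were called in both under every alternative. In KO lines the deposited TPM in limma gave Cspg4 at -1.96 (adjusted p = 0.0238), as called. Directions of members that had not been called turned often with 1 library left out: 12 values for the difference of the genotype effects (7 of them Pdgfra), 5 for KO against WT neurospheres, 2 for KO against WT MEFs and 1 between WT cell types. In the other settings, the replicate block aside, they turned for KO against WT neurospheres Olig2 with a stricter filter (0.00, just above 0) and for the difference of the genotype effects, with TPM in limma, Olig1 (-0.17) and Pdgfra (-0.12), and without the MEF lines that stand apart Olig1 (-0.39). With each library left out in turn, the log2 values ran from -1.99 to 0.08 for Cspg4 between WT cell types and from -0.10 to 0.41 for Pdgfra in MEFs by genotype. In neurospheres by genotype they ran from -0.23 to 0.23 for Olig2, -0.61 to 1.01 for Pdgfra and -1.86 to 0.88 for Cspg4. For the difference of the genotype effects they ran from -0.38 to 2.72 for Olig1, -0.22 to 0.22 for Olig2, -0.92 to 0.80 for Pdgfra and -2.30 to 0.46 for Cspg4. The differences of mean log2(CPM + 1) used in the permutation tests ran from -0.23 to 0.40 for Pdgfra in MEFs, and in neurospheres from -0.24 to 0.24 for Olig2, -0.90 to 0.91 for Pdgfra and -1.44 to 0.84 for Cspg4. The cause of these changes was not tested.

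Over all genes, KO against WT neurospheres gave 7 calls by DESeq2 and 2 without a filter against 1, and 0 to 2 with a library left out. KO against WT MEFs gave 3 without the lines that stand apart and 0 with the replicate block, against 1. The lines share replicate numbers with no stated pairing. Deviations of same-numbered WT and KO lines had an r of -0.62 to 0.05 in MEFs, and of 0.13, -0.11 and 0.22 in neurospheres, so in neither were all pairs over 0.1, and the numbers were not taken as pairs. The labels do not say whether a MEF and a neurosphere line came from 1 embryo. Numbers in the deposited names recur between the cell types of a genotype and might mark embryos. They were not used, so that the fits between cell types take the lines as independent. With the replicate block 5 members stayed called between WT cell types and 4 between KO cell types, where Myrf (-2.90, adjusted p = 0.106) and Mbp (-2.23, adjusted p = 0.129) were lost, and KO cell types gave 3295 calls against 5892. The block turned Pdgfra to -0.06 in neurospheres by genotype and to -0.25 for the difference of the genotype effects. With 1669406 to 3296178 counts a library, Nkx2-2, Gpr17, Myrf and Mbp in neurospheres rest on at most 28 counts per group and at most 16 per line.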

Other observations

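Genes of ventral patterning, which position the OLIG2 domain in the embryo, were split between the cell types. Of 11 listed, 5 passed the low-count filter, with 1 higher and 2 lower in neurospheres of each genotype, against 20.8% higher and 20.8% lower over all genes in WT and 25.4% and 26.2% in KO lines. Ptch1, the hedgehog receptor and a target of the pathway, was higher in neurospheres, at 146 CPM on average in WT lines against 19.7 in WT MEFs (log2 2.91, edgeR adjusted p = 0.00691). Gli1, of the same list, held at most 0.698 CPM in any neurosphere line, and the activity of the pathway was not tested. Gli3 (-2.73, adjusted p = 0.000535) and Dlx2 (-3.49, adjusted p = 0.0305) were lower, and the KO lines gave the same 3 calls in the same directions. Between KO and WT lines none of the 11 passed the test in either cell type.

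Astrocyte markers were read beside the lineage genes in the neurospheres: of 7 listed, all 4 that passed the filter between WT lines and all 6 between KO lines were higher there, where 20.8% and 25.4% of all genes tested were higher. Some, such as Gfap with 0 counts in all MEFs, passed the filter only through the neurospheres. Not all of the list was read evenly. Aqp4 had 0 counts in WT and 1 count in KO neurospheres. Over WT neurosphere lines Gfap ran from 0 to 92.2 CPM and Aldh1l1 from 1.06 to 46.6 CPM. Slc1a3, a glutamate transporter of radial glia and astrocytes, averaged 2289 CPM in the WT group against 2652 CPM in the KO group (log2 0.23 by genotype, edgeR adjusted p = 0.999).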
